A study of Mus musculus with 6 samples.

Results

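The genes described here are 9 complement components and regulators: the C1q chain genes C1qa, C1qb and C1qc, the central components C3 and C4b, the convertase proteases C2 and Cfb, the inhibitor Serping1 and the receptor C5ar1. They were chosen by name, with earlier results of these data known. Every array probe whose RefSeq accession belongs to one of them was taken, which gave 11 probes for 9 of the 20648 genes with a symbol on the array. RNA came from spheres, free-floating clusters of cells, that were grown from mouse mammary tumors in a medium with B27 supplement, heparin (2 mg/mL) and the growth factors EGF and bFGF (20 ng/mL each). The 3 control samples had the genotype FRS2beta hetero, called hetero below, and the other 3 were FRS2beta knock-out. FRS2beta, the product of Frs3, is a docking protein of growth factor receptor signalling. Both groups were tumor spheres grown in the same medium. The strain, the age, the oncogene and the number of animals or tumors behind each sample are not given in the sources used here, so p-values reflect the spread among these 6 samples alone, part or all of which may be technical.

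Complement is a cascade of plasma and tissue proteins that tags cells and particles for uptake and can lyse them. C1q recognises bound antibody and other ligands and activates the proteases C1r and C1s, which cleave C4 and C2 to form the classical C3 convertase. Factor B forms the alternative convertase on deposited C3 fragments, and the C3a and C5a peptides released downstream act on receptors of myeloid cells. The liver makes most plasma complement, while in tissues C1q is made chiefly by macrophages and dendritic cells, and C3, C4, C1r, C1s and C1 inhibitor are also made by fibroblasts and epithelial cells.

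All values are log2 processed signals relative to the 75th percentile of their array, so that 0 is the signal of a probe at that percentile, and changes are knockout minus hetero. The 75th percentile itself was 404 to 416 signal units for hetero spheres and 465 to 487 for knockout spheres, and 60.4% to 69.6% of probes were well above background. Across the 15838 genes tested, arrays of a genotype correlated at 0.995 to 0.998. The probe of the targeted gene, Frs3, was well above background on 1 of 3 hetero arrays and 0 of 3 knockout arrays, so it does not check the labels. The mammary epithelial markers Krt8, Krt18 and Epcam were well above background on all 6 arrays, but 9.48-fold, 10.9-fold and 13.4-fold higher in knockout spheres.

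Knockout spheres carried less RNA of 8 of the 9 complement genes, on the scale set by the 75th percentile, and the ninth, C5ar1, was too dim to be tested. The falls were largest for C4b, 8.36-fold, and C3, 6.80-fold, the components that become covalently attached to targets. C1qc, C2, Cfb and C1qa fell by 3.52-fold, 3.50-fold, 2.65-fold and 2.40-fold, and Serping1 and C1qb by 1.66-fold and 1.45-fold. For comparison, 32.6% of all genes tested were called lower (limma, Benjamini-Hochberg adjusted p under 0.05 over all genes), and 3.52% were called and at least 2-fold lower, a size that 6 of the 8 tested complement genes reached. The median log2 change was -1.61 for the 8 genes and -0.03 for all genes. Because the genes were chosen with earlier results known, these comparisons describe them and do not test them as a set. Values of the 8 genes did not overlap between the genotypes, which was also true, with the knockout lower, of 37.3% of all genes. In a bulk sample, fewer cells of a type and less RNA per cell cannot be told apart.

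**Figure D1:**
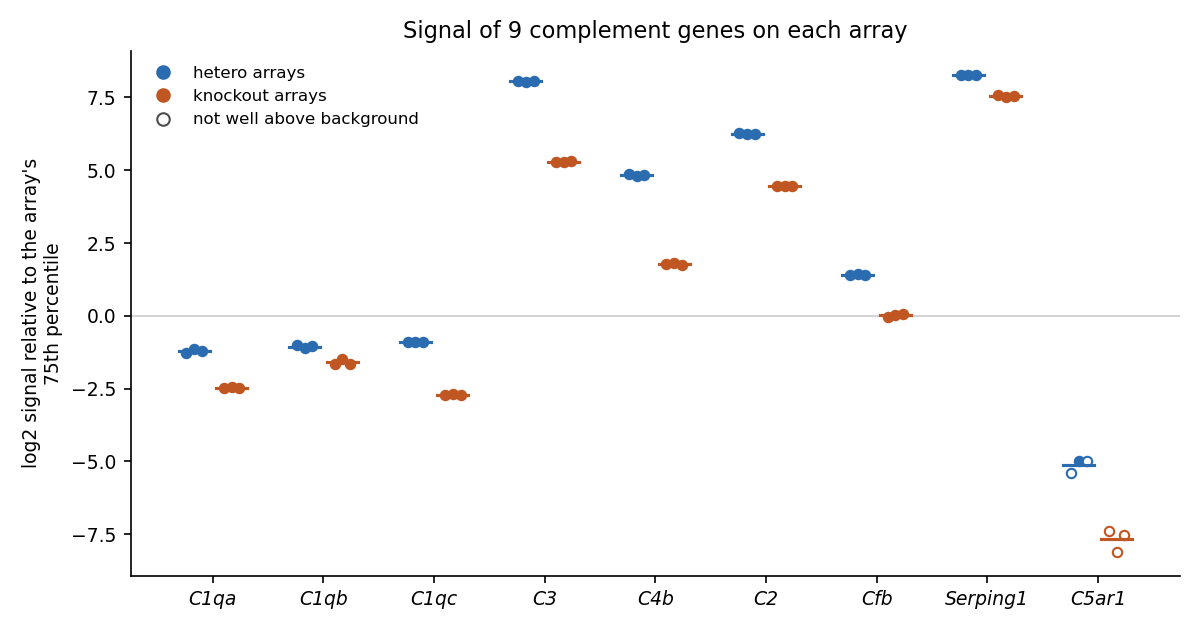
Log2 signal of each complement gene relative to the 75th percentile of its array, for 3 hetero arrays (blue) and 3 knockout arrays (orange), with a bar at the mean of each group; open circles are signals not well above background. The knockout arrays lie below the hetero arrays for every gene shown, and C5ar1 was well above background on 1 hetero array alone. Signals of different genes come from different probes and cannot be set against each other.

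The C1q chains assemble into a single recognition molecule, yet their RNAs changed by unequal amounts. C1qc had signals of -0.90, -0.89 and -0.88 on hetero arrays 1 to 3 and of -2.74, -2.68 and -2.71 on knockout arrays 1 to 3. The knockout values were all far below the hetero values, with a change of -1.81 ± 0.02 (SE, limma adjusted p = 4.45e-07). C1qa was measured at -1.26, -1.14 and -1.22 in hetero spheres and at -2.49, -2.45 and -2.47 in knockout spheres, a change of -1.26 ± 0.04 (limma adjusted p = 5.00e-06). C1qb changed least, from -1.01, -1.12 and -1.04 to -1.65, -1.47 and -1.66, which is -0.54 ± 0.06 (limma adjusted p = 0.000958). Its groups lay apart, but its knockout arrays spread more than those of the other chains, with an SD of 0.11 against 0.03 and 0.02 (n = 3 each). Of all genes tested, 1.09% fell by more than C1qc, 2.53% by more than C1qa and 10.2% by more than C1qb.

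Taken as ratios within an array, which do not change when an array is rescaled, C1qc over C1qb went from 0.16 ± 0.06 in hetero spheres to -1.11 ± 0.08 in knockout spheres (log2, SD, n = 3 each). C1qa over C1qb went from -0.15 ± 0.12 to -0.88 ± 0.09, and C1qc over C1qa from 0.32 ± 0.06 to -0.24 ± 0.01. The groups did not overlap for any of these ratios. The gene with the larger fall is on top in each, so their direction follows from that order, and C1qc over C1qa follows from the other ratios. Each exact two-sided permutation test gave p = 0.1, the smallest that 3 arrays against 3 allow, and 0.1 after adjustment over the 5 ratios computed. The probes of the chains differ in brightness and affinity, so these ratios show unequal change in signal and not the ratio of the transcripts. With normexp background correction, which compresses dim signals, the differences between the genotypes were -0.88, -0.55 and -0.33.

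**Figure D2:**
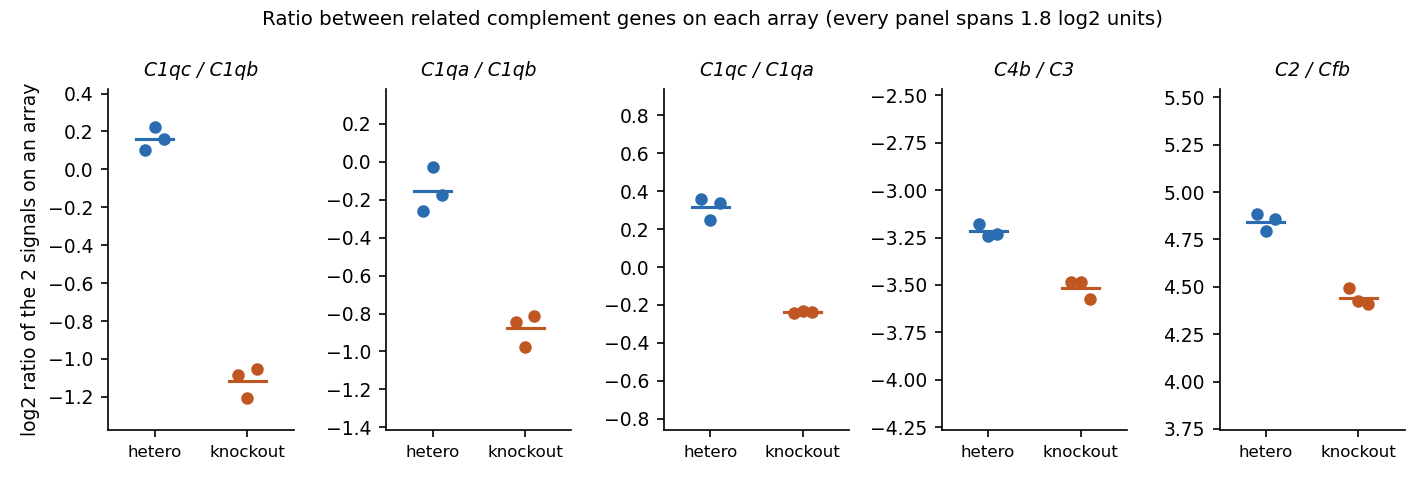
Log2 ratio of the signals of related complement genes on each of 3 hetero (blue) and 3 knockout (orange) arrays, with a bar at the group mean; every panel spans the same height. All 5 ratios were lower on the knockout arrays without overlap, and the largest shift, of -1.28, was that of C1qc over C1qb. In each ratio the gene with the larger fall is on top, so the shared direction follows from that order.

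Promoter sequences in the RefSeq table (build GRCm38.p6) matched 4 of the 9 genes: C1qb, C1qc, C3 and C5ar1. Those of C1qb, C1qc and C3 are shown because these genes span the range of the changes, from the smallest fall of the group to one of the largest. Each is the 250 bases before the gene's start on the minus strand, at chr4:136886201-136886450, chr4:136892915-136893164 and chr17:57228137-57228386. Capitals mark matches, on either strand, to GAGGAA, the core bound by PU.1-type factors of myeloid cells, and to TTNNGNAA, a pattern of C/EBP-type factors.
C1qb: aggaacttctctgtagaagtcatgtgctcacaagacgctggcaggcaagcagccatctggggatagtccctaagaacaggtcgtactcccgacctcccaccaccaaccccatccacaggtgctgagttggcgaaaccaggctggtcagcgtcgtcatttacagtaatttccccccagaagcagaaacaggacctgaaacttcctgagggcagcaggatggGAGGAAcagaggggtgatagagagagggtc
C1qc: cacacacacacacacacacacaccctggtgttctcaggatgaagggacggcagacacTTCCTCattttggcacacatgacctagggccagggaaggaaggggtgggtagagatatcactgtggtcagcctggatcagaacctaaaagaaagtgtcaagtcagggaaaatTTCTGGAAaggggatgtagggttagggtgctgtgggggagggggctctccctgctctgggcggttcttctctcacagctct
C3: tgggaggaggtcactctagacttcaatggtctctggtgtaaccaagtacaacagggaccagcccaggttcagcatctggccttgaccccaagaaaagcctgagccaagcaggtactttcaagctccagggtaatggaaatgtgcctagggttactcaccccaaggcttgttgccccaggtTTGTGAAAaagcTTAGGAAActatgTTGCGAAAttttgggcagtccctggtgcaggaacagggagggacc
The C1qb and C1qc windows each held GAGGAA once, a pattern found at least once in 23.3% of all 32851 promoters of that table, cut to the same length. The C3 window held TTNNGNAA at 3 places, with first bases at positions -70, -58 and -45 from the gene's start, and 2.62% of promoters held 3 or more such matches. C1qc held 1 match and C1qb 0, and 36.8% of promoters held at least 1. No match overlapped another of the marked patterns. Another 4 patterns were searched on both strands and are not capitalised. The interferon-stimulated response element (GAAA, any 2 bases, GAAA), the gamma-activated site TTCNNNGAA and the TATA box TATAAA were in none of the 3 windows, against 2.98%, 7.02% and 12.4% of all promoters. An NF-kB-type pattern (GGG, any 5 bases, CC) was in all 3, with overlapping matches, and in 45.8% of all promoters. The C5ar1 window, not shown, held 1 match to TTNNGNAA and none to GAGGAA, the NF-kB-type pattern or the other patterns searched. A match describes letters in the window and is not evidence of a bound site.

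C3, the component on which all activation routes converge, had hetero signals of 8.07, 8.05 and 8.06 and knockout signals of 5.27, 5.29 and 5.31. Arrays of a genotype lay within 0.04 of each other, and the change was -2.77 ± 0.02 (SE, limma adjusted p = 1.31e-07). A second C3 probe gave -2.70 ± 0.03. C4b, the component that C1s cleaves, went from 4.89, 4.80 and 4.83 to 1.79, 1.81 and 1.73, a change of -3.06 ± 0.03 (limma adjusted p = 3.23e-07). Among all genes tested, 0.126% fell by more than C4b and 0.221% by more than C3. The ratio of C4b to C3 was lower by 0.30 log2 units in knockout spheres (groups not overlapping, exact permutation p = 0.1). C4a is a near-identical neighbour of C4b that had no probe of its own here, so the C4b signal may hold both.

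C2 and Cfb, neighbouring genes that encode the related proteases of the classical and the alternative C3 convertase, fell together but not equally. C2 signals were 6.29, 6.24 and 6.26 in hetero spheres and 4.44, 4.46 and 4.46 in knockout spheres, a change of -1.81 ± 0.02 (SE, limma adjusted p = 4.38e-07). Cfb signals were 1.40, 1.44 and 1.40 against -0.05, 0.03 and 0.05, a change of -1.40 ± 0.04 (limma adjusted p = 2.92e-06). The groups were apart for both genes, and the log2 ratio of C2 to Cfb was 0.40 lower in knockout spheres, again without overlap.

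Serping1 encodes C1 inhibitor, the serpin that removes active C1r and C1s. Its signals were 8.28, 8.28 and 8.26 in hetero spheres and 7.57, 7.50 and 7.56 in knockout spheres. All knockout values lay below the hetero values, by a smaller step than for the components it restrains (change -0.73 ± 0.03, SE, limma adjusted p = 1.23e-05). Its second probe gave -0.74 ± 0.04. C5ar1, the receptor for C5a on neutrophils and macrophages, was hardly detected: its probe read -5.38, -5.00 and -4.99 in hetero spheres, with hetero array 2 alone well above background, and -7.40, -8.11 and -7.52 in knockout spheres, all below background. It was not tested, and no fold is given.

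**Figure D3:**
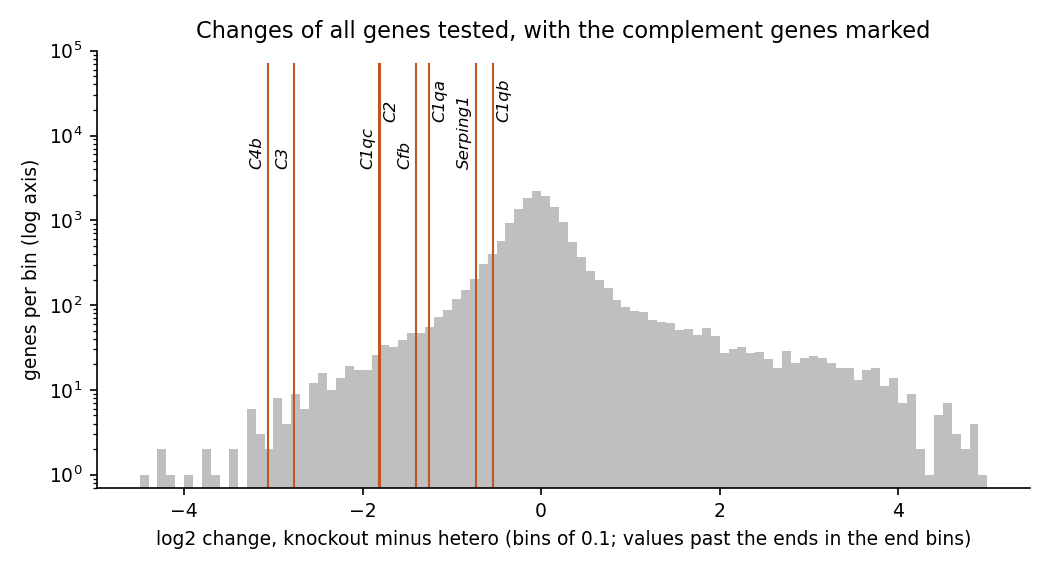
Number of genes (log axis) by log2 change, knockout minus hetero, for the 15838 genes tested, with orange lines at the 8 tested complement genes. C4b and C3, at -3.06 and -2.77, lie near the lower end of the distribution, and C1qb, at -0.54, closest to its centre.

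The direction of all 8 changes held under the 16 alternatives run, and each remained called in every one. The replicate block and the changes of filter left these estimates as they were, so only the calls could change there. Scaling to the E1A spike-in controls, rather than to the 75th percentile, moved the median change of all genes by 0.40, to 0.37, and gave 11211 genes called higher and 1289 lower, in place of 4403 and 5160. Under it C1qb was at -0.14 (limma adjusted p = 0.0446), Serping1 at -0.33, C3 at -2.36 and C4b at -2.66. With normexp the C1q genes changed less, C1qc by -1.28 and C1qa by -0.95.

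**Figure D4:**
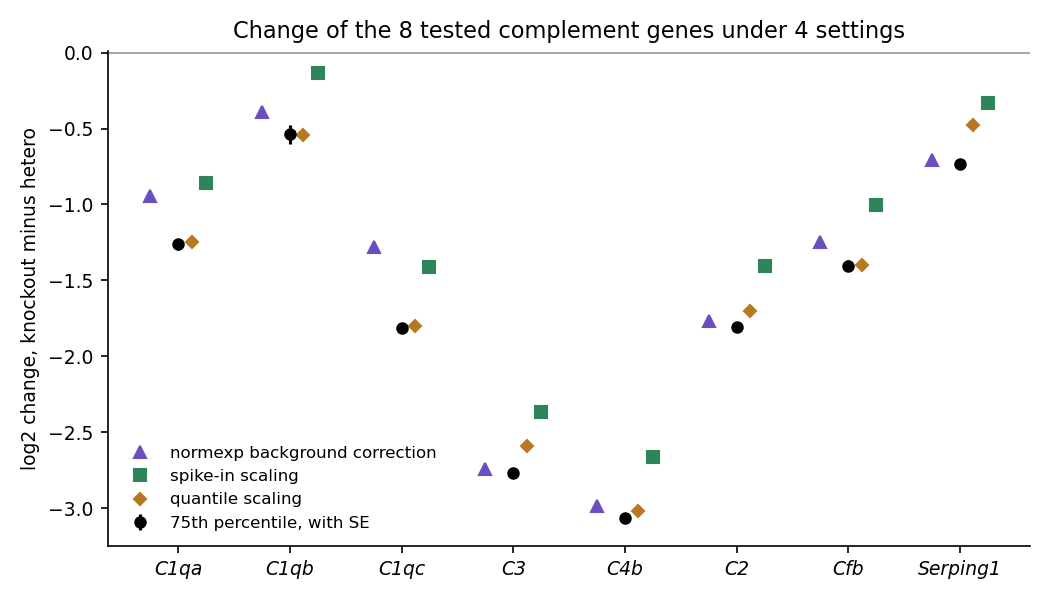
Log2 change, knockout minus hetero, of the 8 tested complement genes with scaling to the 75th percentile (black, with SE) and with normexp background correction, quantile scaling or spike-in scaling. All points lie below 0, and C1qb comes closest to it under spike-in scaling, at -0.14.

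Of 51 other genes of the complement system, 36 were tested: 23 fell, 7 rose and 6 did not pass (limma, adjusted p under 0.05), with a median change of -0.56. All genes tested were called lower in 32.6% and higher in 27.8%. With spike-in scaling 14 of the 36 fell and 11 rose, and 7 genes changed sign, all of them at changes between 0 and -0.40 with the 75th percentile: Colec11, Apcs, Cr1l, Itgam, Cd93, Calr and Lrp1.

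The proteases that C1q activates fell with it. C1ra, C1rb, C1s1 and C1s2, mouse gene pairs for C1r and C1s, changed by -1.72 ± 0.03, -1.62 ± 0.03, -1.67 ± 0.04 and -1.59 ± 0.03 (SE, limma adjusted p up to 1.78e-06). The pairs are close copies, and their probes may share signal. C1s1, for example, read 6.46, 6.39 and 6.46 in hetero spheres and 4.72, 4.76 and 4.82 in knockout spheres. The fifth protease gene tested, Masp2 of the lectin pathway, was higher by 1.13 ± 0.31 with 1 of 3 hetero arrays above background, while another of its probes gave -0.44 ± 0.89. Its call was lost with normexp, when probes were averaged, and without hetero replicate 1, knockout replicate 1 or knockout replicate 2 (limma adjusted p = 0.0708 to 0.0769 for these 3). Masp1 and Cfd, the factor D gene, were too dim to be tested.

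Among recognition molecules, the pentraxin Ptx3, which binds C1q, fell by 1.97 ± 0.05, from 2.30, 2.20 and 2.28 to 0.21, 0.37 and 0.29. Crp, C-reactive protein, was well above background on 3 hetero arrays and on 0 knockout arrays. It passed the filter through the hetero arrays alone, so no fold or p-value is given, though the count of genes that fell includes it. Colec10, a collectin, changed by -0.73 ± 0.22 (limma adjusted p = 0.034), a call lost in 6 alternatives, among them the fits without any 1 of the knockout replicates (limma adjusted p = 0.0815 to 0.0881) and the fit with replicate numbers as a block (limma adjusted p = 0.0509). Apcs, serum amyloid P, changed by -0.28 ± 0.10 and missed the threshold (limma adjusted p = 0.0505), and passed it in 5 alternatives, among them those without knockout replicate 2 (limma adjusted p = 0.0204) and with replicate numbers as a block (limma adjusted p = 0.0217). Without hetero replicate 1, Colec11 and Cd59b, which had missed the threshold, passed it (limma adjusted p = 0.0109 and 0.0323), and Cd59b also did so with the block (limma adjusted p = 0.0406).

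Of the terminal components, which build the membrane attack complex, C7, C6 and C8g fell (changes of -1.10 ± 0.11, -1.05 ± 0.16 and -0.54 ± 0.08), and a second C7 probe gave -2.09 ± 0.08. Hc, the C5 gene, rose slightly, from 2.14, 2.13 and 2.14 to 2.51, 2.47 and 2.47 (change 0.35 ± 0.02, SE, limma adjusted p = 8.85e-05). The C8g call was lost with spike-in scaling.

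Soluble regulators held the largest fall and the largest rise among the 36 genes. Vtn, vitronectin, which keeps the terminal complex from inserting into membranes, fell 18.1-fold, from 1.37, 1.37 and 1.36 to -2.83, -2.82 and -2.80. Clu, clusterin, which also binds the terminal complex, rose 9.88-fold, from 4.19, 4.17 and 4.15 to 7.51, 7.46 and 7.45. Both groups of arrays were tight and far apart for these genes (limma adjusted p = 1.19e-07 and 1.31e-07). Cfp, properdin, which stabilises the alternative convertase, changed by -1.05 ± 0.05, and Cfi, the protease that inactivates C3b, by -0.80 ± 0.17. With spike-in scaling Cfi was at -0.40 and lost its call (limma adjusted p = 0.0797).

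On the cell surface, Cd55 and Cd55b, which speed the decay of convertases, fell by 0.93 ± 0.03 and 0.72 ± 0.07. Cd59a, which blocks the last step of the attack complex, rose by 0.36 ± 0.02 and Susd4, an inhibitor of convertase formation, by 1.22 ± 0.07. Cr1l, the rodent regulator Crry, fell by 0.24 ± 0.04 with the 75th percentile and was at 0.16 with spike-in scaling.

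**Figure D5:**
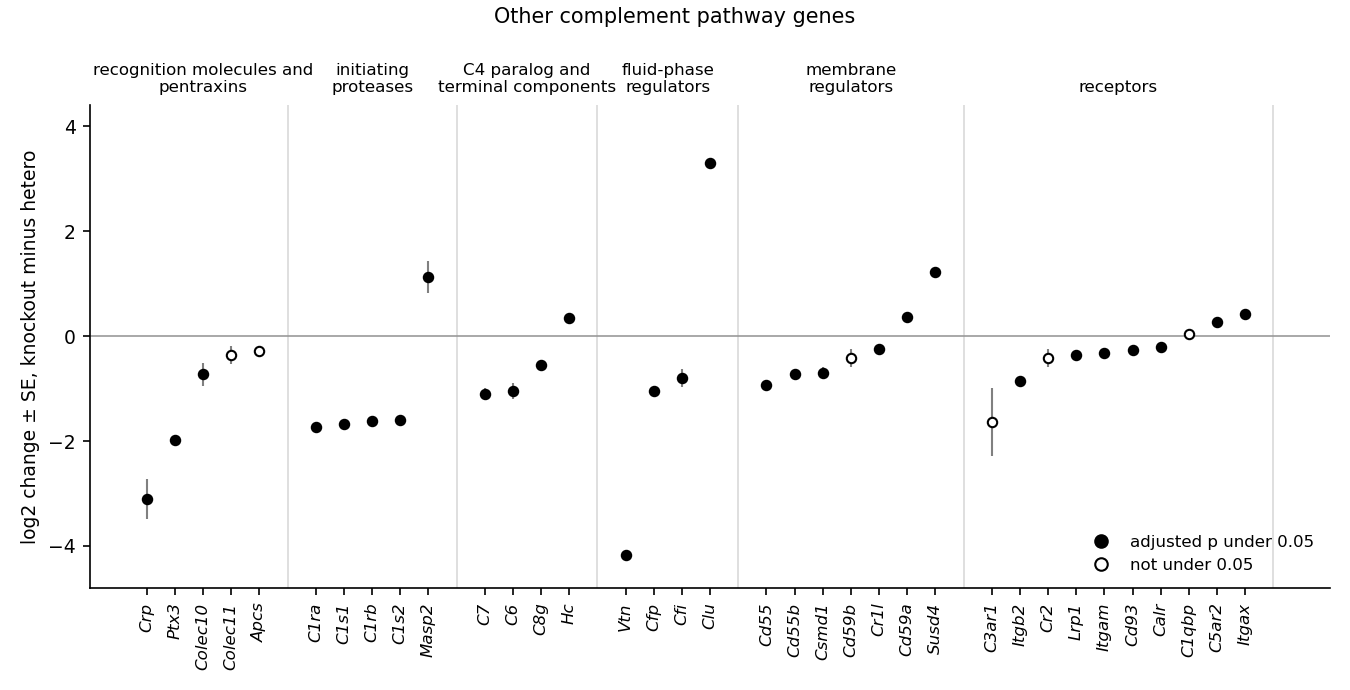
Log2 change ± SE, knockout minus hetero, of other complement genes ordered by role; filled circles have a limma adjusted p under 0.05. Vtn and Clu mark the extremes, and the C1r and C1s genes lie between -1.72 and -1.59. Crp was not well above background on the knockout arrays, so its plotted value is not a measured fold.

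Of 10 receptor genes tested, 5 fell, 2 rose and 3 did not pass, where 32.6% of all genes were called lower and 27.8% higher. Of the 5 that fell, Lrp1, Cd93, Itgam and Calr changed sign with spike-in scaling, and Itgb2 did not. Lrp1, which clears serpin and protease complexes, and Cd93 fell by 0.37 ± 0.02 and 0.27 ± 0.03. Itgam and Itgb2, the subunits of complement receptor 3, fell by 0.32 ± 0.03 and 0.86 ± 0.08, and the other Itgam probes gave -0.69 ± 0.05 and -0.48 ± 0.14. Itgax and C5ar2, named after their values were seen, rose by 0.42 ± 0.05 and 0.26 ± 0.07, and the C5ar2 call was lost without hetero replicate 1 or 2 (limma adjusted p = 0.0789 and 0.0767) and with replicate numbers as a block (limma adjusted p = 0.0768). C3ar1, the C3a receptor and also named after its values were seen, read -1.83, -1.71 and -1.83 in hetero spheres and -4.18, -4.14 and -1.94 in knockout spheres. Knockout array 3 thus lay beside the hetero arrays, the gene did not pass (limma adjusted p = 0.0762), and without that array its change was -2.37 (limma adjusted p = 2.65e-05).

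Macrophage markers fell beside the complement genes. For the counts in this paragraph, 32.6% of all genes tested were called lower and 27.8% higher. All 14 tested of 17 listed markers were lower, with a median change of -1.95, and their summed signal, in multiples of the 75th percentile, was 54.5 to 55.2 on hetero arrays and 26.6 to 27.1 on knockout arrays. Of the defining markers, Adgre1 changed by -2.48 ± 0.03 and Csf1r by -0.85 ± 0.03, and Cd68 had no matched probe. Fibroblast markers, whose cells also make C3, C4 and C1 inhibitor, fell in 8 of 10 and rose in 1, with a summed signal of 2514 to 2741 against 1923 to 1983. Spike-in scaling moves changes up by 0.40, more than the falls of Col1a1 and Col6a1, at -0.16 and -0.31. The other called falls of fibroblast markers were larger than that shift. Sums of marker signals are given with the 75th percentile only, and small falls among them depend on that scale. Epithelial cells, which also make C3, C4 and C1 inhibitor, had markers that mostly rose. Luminal epithelial markers rose in 10 of 10, from a summed 11.8 to 12.2 up to 129 to 132. Of 6 tested basal epithelial markers 4 rose and 1 fell. Their summed signal was 20.74 to 20.9 on hetero arrays and 91.86 to 92.26 on knockout arrays. The part of these cell types in the complement changes was not tested. Other immune markers, few of them tested, changed in part, and the neutrophil counts lay near the shares of all genes. Of 4 tested of 8 T cell markers, 2 fell, among them Cd3e at -0.56 ± 0.07 (limma adjusted p = 0.0011), and their summed signal was 9.72 to 11.2 against 7.85 to 8.83. Of 6 tested neutrophil markers 2 rose, S100a8 at 0.63 ± 0.04 and S100a9 at 2.07 ± 0.10 with 1 of 3 hetero arrays above background, and 2 fell. Of 4 tested B cell markers 2 fell and 1 rose, Ms4a1, which was above background on 0 hetero arrays and on 3 knockout arrays. Ms4a1 passed the filter through the knockout arrays alone, so no fold or p-value is given. Of 5 dendritic cell markers 1 was tested and did not pass, and Flt3 was too dim to be tested.

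As a further comparison, each gene was set against the median level of the 14 macrophage markers on the same array. That level went from 0.64 ± 0.02 in hetero spheres to -0.81 ± 0.03 in knockout spheres (SD, n = 3 each). With an even number of markers it is the mean of the middle ones, which on every array were Marco and Mertk. These changed unequally, by -2.28 ± 0.05 and -0.62 ± 0.03 (SE), so the comparison rests on their signals. The median level changed by -1.45, less than the median of the markers' own changes, -1.95. C1qc and C2, at -1.81 each, lie between these values. Against the median level, C3 and C4b were lower in knockout spheres by a further 1.32 and 1.62 log2 units, and C1qb and Serping1 were higher by 0.91 and 0.72. C1qc and C2 were lower by 0.37 and 0.36 and C1qa higher by 0.19, while Cfb, at 0.05, overlapped between the groups. Exact two-sided permutation tests gave p = 0.1, the smallest possible, for the 7 genes that did not overlap and p = 0.4 for Cfb (0.114 and 0.4 adjusted over the 8 genes). The direction of C1qa, C1qc, C2 and Cfb reversed in 1 or 2 of 17 alternatives. That of C3, C4b, C1qb and Serping1 was kept in all 17, with wide ranges of -1.92 to -0.77, -2.25 to -1.07, 0.28 to 1.45 and 0.08 to 1.26. Some of the 17 could not change these values. They are the replicate block and those that only rescale whole arrays, as median scaling, spike-in scaling and the deposited table do. With averaged probes Serping1 was at 0.08 and its exact permutation p was 0.2, above the smallest possible.

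Most tested neighbours of these genes in gene order changed less than they did. On chromosome 4, of 3 tested genes on either side of the C1q cluster, Ephb2, Kdm1a, Wnt4, Zbtb40 and Cdc42 lay between -0.17 and 0.19, and Lactbl1 at -1.10 ± 0.35. On chromosome 17, where C4b, Cfb and C2 lie in the MHC class III region, Cyp21a1, Stk19, Dxo, Skiv2l and Nelfe stand between them and lay between -0.14 and 0.08. Tnxb, the tenascin XB gene and the nearest tested gene beyond C4b, changed by -3.14 ± 0.03, a fall near that of C4b. Atf6b, Fkbpl, Zbtb12, Ehmt2 and Neu1 lay between -0.34 and -0.06. Around C3 on the same chromosome, Trip10 and Gpr108 changed by -0.20 each, Tnfsf9 by 0.10 ± 0.04 and Gm11110 by -0.33 ± 0.02. The exceptions there were Vav1, at -2.10 ± 0.10, and Tnfsf14, at -1.34 ± 0.32.

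The genes most like the C1q chains over the 6 arrays, by the root-mean-square difference of centred log2 signals from the mean of the 3 chains, were Lnx1 (0.015), Vegfd (0.028), Lpl (0.030), Cldn15 (0.031) and Rab3il1 (0.035). Those most like C3 were Cdkn1c (0.033), the chemokine genes Ccl3 (0.053) and Ccl4 (0.058), Gpc3 (0.082) and Cpz (0.085). With 3 arrays per genotype this likeness reflects mainly the size of the change, which was -1.25 to -1.19 for the first group and -2.85 to -2.71 for the second.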

How the data were processed

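Cy3-labelled total RNA of 3 hetero and 3 knockout samples was measured on 1-colour Agilent arrays, per the labels. The deposited scanner files hold linear processed intensities from Agilent Feature Extraction 10.7.3.1, per the file headers and the submitters' processing notes. The steps within that software are not given in the sources used here. The array header names build mm9. The deposited value table, also an intensity, is these signals over 1 divisor per array (to 1%, for 100% of the 46182 probes compared).

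Of 62976 spots, 3671 controls and 102 to 129 flagged spots per array were left out, and no spot was saturated. Probes were averaged over spots and named through RefSeq accessions (GRCm38.p6 table). Log2 signals were scaled to the 75th percentile. Probes well above background on at least 3 of 6 arrays were kept, each gene was taken as its brightest kept probe, and 15838 genes were fitted with limma 3.58.1 (R 4.3.3) without covariates, at an adjusted p of 0.05. The number of arrays limits the precision. The fit was tested on simulated data. For a probe below background on all arrays of a group, no fold is given.

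The members, gene lists and tests were chosen with earlier results of these data known. Genes were named by rule: all members, up to 4 genes per pathway role with the smallest p, the first 3 markers of each cell type, the 5 closest profiles, and up to 3 tested neighbours per side. Genes between C4b and C2, Masp2, Cfi, Cr1l, Colec11, Cd59b, Calr, Itgax, C5ar2, C3ar1, Marco, Mertk and Col6a1 were named beyond it, after their values were seen. Alternatives covered scaling, background, filter, probe rule, the deposited table, a replicate block and leaving out each replicate. Normexp, with an offset of 50, used median spot signals because the files hold no mean signal column, and was chosen after seeing the data, as was the mean of marker levels. Values of some listed genes are not reported here and not plotted, while the counts include them.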

Additional observations from a re-analysis of the deposited data

How the results depend on the processing

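The counts of complement genes called (8 lower, 0 higher) were the same in all alternatives, except 9 lower without the filter, where C5ar1 entered. Its probe was well above background on 1 hetero array alone, so that call compares dim readings and is not counted as a result. Without the filter, 4810 of all genes were called lower and 4119 higher. At an unadjusted p under 0.05, 0 members were higher as well (limma). With spike-in scaling, 14 other pathway genes were called lower and 11 higher, and 1289 and 11211 of all genes; calls were then 89.7% higher, against 46.0%. Under it the changes of Colec11, Apcs, Cr1l, Itgam, Cd93, Calr and Lrp1 turned to 0.040, 0.120, 0.164, 0.0855, 0.136, 0.187 and 0.0353. Leaving out 1 replicate gave 22 to 25 lower and 5 to 7 higher pathway genes, and 4578 to 4873 lower and 3894 to 4108 higher genes. Of the called pathway genes, 9 were not called and 3 were called in the other direction in at least 1 alternative (11 genes in all). Another 6 were called only in an alternative. The cause was not tested. Against macrophage markers, C1qc and C2 turned to 0.178 and 0.186 when probes had to exceed background on all 6 arrays, and to 0.0180 and 0.0268 with the mean of marker levels, and C1qa and Cfb to -0.45 and -0.59 with averaged probes.

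Same-numbered arrays did not deviate together (correlations -0.115, -0.02 and -0.01, and 0 of 6 arrays correlated best with their own number). Pairing by number was thus not seen, though so few arrays cannot exclude it. With the replicate block 4579 genes were lower and 3932 higher, and the 8 complement genes stayed called (24 and 6 of the other pathway genes). A slide block was not run because all arrays lay on 1 slide, and normexp on mean signals was not run. Signals near background, such as C5ar1 and Masp2, are the least certain.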
